A study of Mus musculus with 24 samples.

Results

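Adult wild type livers given TCPOBOP were compared with adult wild type livers given corn oil, a set of 6 of the 24 libraries of this mouse liver series. The 3 TCPOBOP and the 3 corn oil libraries were chosen by their labels alone (wild type, C57BL/6, postnatal day 60), and no measured value was used. TCPOBOP is a potent agonist of the mouse constitutive androstane receptor (CAR), and corn oil served as its control. The dose, the time between dosing and collection, and the sex are not stated, nor whether replicates are separate animals, so p-values measure only the spread between these libraries. The other libraries used here for comparison are newborn wild type livers (postnatal day 5) given TCPOBOP or corn oil, and adult livers of hCAR-TG mice (a human CAR knock-in, postnatal day 60) given CITCO, an agonist of human CAR, or corn oil, with 3 libraries in each group. Polyadenylated RNA was sequenced, and the deposited values are FPKM per gene, that is, fragments scaled by transcript length and by the mapped total of the library.

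CAR, the product of Nr1i3, is a nuclear receptor of hepatocytes that is held in the cytoplasm until a drug or an indirect signal such as phenobarbital moves it into the nucleus. There it pairs with RXR and switches on genes that oxidise, conjugate and export foreign compounds, of which Cyp2b10 is the standard readout in mice. Activators of CAR are also known in rodents as direct mitogens, which enlarge the liver without prior injury, and as repressors of gluconeogenic and lipid-oxidising genes. The genes below are taken in the order receptor, oxidation, conjugation, transport, cell cycle and metabolism.

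Of 12282 genes tested, 5801 passed (47.2%): 3855 were higher with TCPOBOP (31.4%) and 1946 were lower (15.8%), at a Benjamini-Hochberg adjusted p under 0.05 in limma. A change of 2-fold or more on the log2(FPKM + 1) scale was seen in 638 genes that rose (5.19%) and in 196 that fell (1.6%). The 3 TCPOBOP values lay entirely above or entirely below the 3 corn oil values in 7375 genes (60%). Counts in the lists and separate groups of single genes below are to be read against these shares. The deposited FPKM totals of the 6 libraries lay between 452581 and 473915. Their depth relative to each other, read from the widths of the deposited intervals, lay between 0.907 and 1.057, while the absolute depth is unknown. Replicates correlated at 0.9948 or more among TCPOBOP libraries and at 0.9899 or more among corn oil libraries (Pearson, across genes). When the 24 libraries were rescaled by median of ratios, 3143 genes were higher and 2783 lower, so that 53% of the changes were rises, against 66.5% as deposited. Each change below is a difference of log2(FPKM + 1) means, TCPOBOP minus corn oil, with its standard error (SE), and understates the ratio of genes near or below 1 FPKM. "Rose", "fell", "higher" and "lower" are used of genes that passed the adjusted threshold. Single members of families with near-identical copies are uncertain, since their reads can be shared out among them. These are the Cyp2b, Cyp2c, Cyp3a, Cyp4a, Gstm, Gsta, Sult2a and Mup genes. The same holds for Ugt1a1 and Ugt1a9, whose loci overlap.

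The RNA of CAR itself was lower, and its protein was not measured. Nr1i3 (chr1:171213970-171218845, mm10) had 22.1, 23.9 and 19.3 FPKM in the TCPOBOP libraries, against 53.4, 74.2 and 76.9 FPKM in the corn oil libraries, a change of -1.59 ± 0.18 (limma adjusted p = 3.84e-07). Nr1i2 (chr16:38248349-38294824), which encodes the related xenobiotic receptor PXR, had 31.4, 31.8 and 31.9 FPKM with TCPOBOP, against 19.6, 25.3 and 21.98 FPKM with corn oil, a rise of 0.50 ± 0.11 (limma adjusted p = 0.000796). Neither gene had overlapping groups. Among 17 tested genes of CAR, PXR, their partner RXR and their coregulators, 4 rose and 5 fell, with a median change of 0.00 against 0.06 over all tested genes. After rescaling these counts were 2 and 8. Foxo1, a forkhead factor of gluconeogenesis that also binds CAR, was among the genes that fell, with 4.75, 4.62 and 4.44 FPKM with TCPOBOP, against 5.89, 8.64 and 6.41 FPKM with corn oil (-0.49 ± 0.09).

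The largest rise was that of Cyp2b10 (chr7:25897658-25926624), the P450 that oxidises phenobarbital-type drugs. It had 2760.0, 2625 and 2404 FPKM in the TCPOBOP libraries, against 9.31, 11.9 and 17.4 FPKM in the corn oil libraries, a change of 7.59 ± 0.26 (limma adjusted p = 1.05e-14). Gstm3 (chr3:107963696-107969174), a glutathione S-transferase, had 11764, 11891 and 9343 FPKM with TCPOBOP, against 52.6, 55.9 and 62.9 FPKM with corn oil (7.56 ± 0.14). In both genes every TCPOBOP library was far above every corn oil library. Cyp2b10 took 0.589%, 0.56% and 0.514% of all summed FPKM with TCPOBOP, against 0.00204%, 0.00258% and 0.00391% with corn oil. All 7 tested Cyp2a and Cyp2b genes rose, with a median change of 2.54. Cyp2b13 had 102, 105 and 104 FPKM with TCPOBOP, against 0.256, 0.744 and 2.01 FPKM with corn oil (5.81 ± 0.19), and Cyp2a5, the coumarin hydroxylase, had 966, 993 and 1056 FPKM with TCPOBOP, against 109, 186 and 269 FPKM with corn oil (2.50 ± 0.22). Cyp2b9, a relative that is typical of female liver, had 73.2, 104 and 89.6 FPKM with TCPOBOP, against 0.5796, 9.37 and 22.1 FPKM with corn oil (3.62 ± 0.58). Its corn oil replicates differed widely among themselves, its change was 2.52 without corn oil replicate 1 and 4.46 without corn oil replicate 3, and in a fit of the 6 libraries alone its rise was no longer past the threshold (limma adjusted p = 0.0504).

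**Figure D1:**
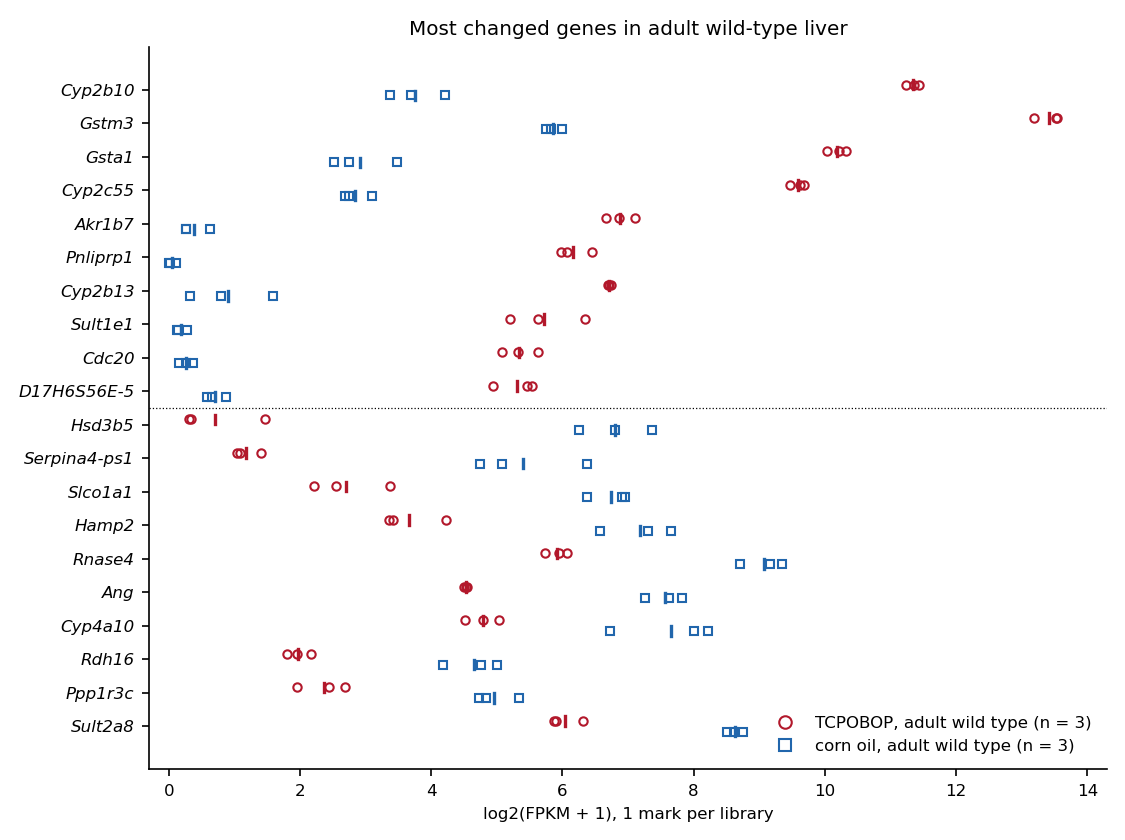
Log2(FPKM + 1) in each of the 6 libraries for the 10 genes with the largest rises and the 10 with the largest falls (red circles TCPOBOP, blue squares corn oil, bars the group means). Genes were drawn only where their groups do not overlap, and they run from Cyp2b10 (7.59) at the top of the rises to Hsd3b5 (-6.10) among the falls.

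The 8 tested Cyp3a genes, which encode the most versatile drug-oxidising P450s, all rose, with a median change of 1.65. Without TCPOBOP replicate 3, 7 of them were past the threshold. Cyp3a11 (chr5:145854607-145879854), the main member in adult mouse liver, had 14430, 13999 and 12310 FPKM in the TCPOBOP libraries, against 3161, 3307 and 3634 FPKM in the corn oil libraries (2.01 ± 0.11). The female-typical members Cyp3a41a, with 633, 605 and 510.3 FPKM with TCPOBOP, against 131, 129 and 146 FPKM with corn oil (2.09 ± 0.20), and Cyp3a16, with 466, 471 and 371 FPKM with TCPOBOP, against 80.1, 87.1 and 104 FPKM with corn oil (2.26 ± 0.15), rose by similar amounts. All TCPOBOP values of these 3 genes lay above all corn oil values, with replicate 3 the lowest TCPOBOP library. Of 5 tested Cyp1 and Ah receptor genes, 4 rose. Cyp1a2, which oxidises aromatic amines and caffeine, had 978, 918 and 892 FPKM with TCPOBOP, against 337, 341 and 285 FPKM with corn oil (1.53 ± 0.12), and the Ah receptor gene Ahr had 18.5, 16.2 and 15.5 FPKM with TCPOBOP, against 8.72, 7.42 and 6.895 FPKM with corn oil (1.03 ± 0.22).

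The Cyp2c family moved both ways. Of 13 tested members 6 rose and 7 fell, and parts of their order along chromosome 19 showed runs of the same direction. Cyp2c55 (chr19:39007019-39042687), at the proximal end, had 818, 790.5 and 706 FPKM in the TCPOBOP libraries, against 5.69, 7.53 and 5.45 FPKM in the corn oil libraries (6.75 ± 0.16). Cyp2c29 (chr19:39287085-39330713), the most abundant member on the FPKM scale, had 6914, 6612 and 6264 FPKM with TCPOBOP, against 771, 1031 and 1035 FPKM with corn oil (2.81 ± 0.39). In both genes every TCPOBOP library was far above every corn oil library. Further along the chromosome, Cyp2c67 (chr19:39608859-39649042), Cyp2c40 (chr19:39767073-39812814) and Cyp2c69 (chr19:39842660-39886769) fell. Cyp2c67 had 24.7, 20.3 and 28.5 FPKM with TCPOBOP, against 148, 151 and 138 FPKM with corn oil (-2.54 ± 0.12), Cyp2c40 had 15.9, 16.99 and 20.2 FPKM with TCPOBOP, against 79.1, 101 and 88.3 FPKM with corn oil (-2.27 ± 0.10), and Cyp2c69 had 9.73, 8.23 and 9.77 FPKM with TCPOBOP, against 43.7, 61.1 and 48.3 FPKM with corn oil (-2.34 ± 0.13). In all 3 genes every TCPOBOP library was far below every corn oil library. The next genes along, Cyp2c37 (chr19:39992424-40012243), Cyp2c54 (chr19:40037940-40073813) and Cyp2c50 (chr19:40089679-40113955), rose again. Cyp2c50 had 2413, 2323 and 2383 FPKM with TCPOBOP, against 421, 514 and 568 FPKM with corn oil (2.25 ± 0.41), while Cyp2c37 (2.06 ± 0.30) and Cyp2c54 (2.25 ± 0.38) changed by similar amounts. Cyp2c44 (chr19:44005022-44029247), which lies apart from the others, had 35.8, 31.9 and 45.03 FPKM with TCPOBOP, against 117, 176 and 157 FPKM with corn oil (-1.96 ± 0.13). The remaining members were described after their values were seen, to complete the map. Cyp2c39 (1.52) rose, and Cyp2c38 (-1.26), Cyp2c68 (-1.06) and Cyp2c70 (-0.54) fell. Cyp2c38 lies between Cyp2c29 and Cyp2c39, which both rose, so the order is mixed there. Cyp2c68 lies between Cyp2c67 and Cyp2c40, and Cyp2c70 follows Cyp2c50. Whether such runs exceed those of a random order was not tested. Among 17 other Cyp2 genes 6 rose and 8 fell. Cyp2e1, the ethanol-inducible P450, whose FPKM level with corn oil was close to that of Cyp3a11, had 948, 839 and 1047 FPKM with TCPOBOP, against 2532, 3705 and 3202 FPKM with corn oil (-1.72 ± 0.11), with no overlap between the groups.

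**Figure D2:**
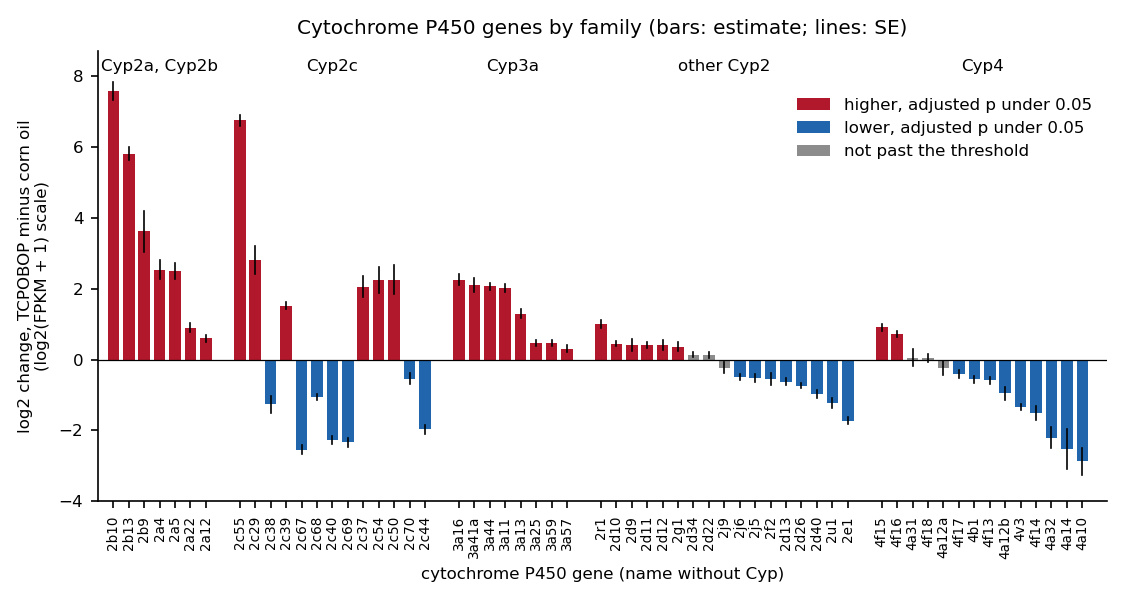
Log2 change (TCPOBOP minus corn oil) with its SE for the tested P450 genes, grouped by family, with the Cyp2c genes in chromosomal order (red higher, blue lower, grey not past the threshold). The Cyp2a, Cyp2b and Cyp3a bars all point up, the Cyp2c bars run from 6.75 to -2.54, and 9 of 14 Cyp4 bars are blue.

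Cyp4 enzymes hydroxylate fatty acids at the chain end, and their Cyp4a members are standard targets of the fatty acid receptor PPARa. Of 14 tested genes 9 fell and 2 rose, with a median of -0.57. Cyp4a10 had 31.9, 26.8 and 21.8 FPKM with TCPOBOP, against 105, 298 and 257 FPKM with corn oil (-2.87 ± 0.37), and Cyp4a32 had 10.3, 10.5 and 9.98 FPKM with TCPOBOP, against 30.4, 69.4 and 61.7 FPKM with corn oil (-2.20 ± 0.31). Corn oil replicate 1 was the lowest corn oil library for both genes and still above every TCPOBOP library. Cyp4f14, which breaks down leukotrienes, had 34.8, 32.3 and 48.3 FPKM with TCPOBOP, against 109.6, 118 and 100.01 FPKM with corn oil (-1.50 ± 0.20).

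P450s need electrons and heme. Of 7 tested genes of electron supply 5 rose and 0 fell. Por, the reductase that feeds all microsomal P450s, had 415, 384 and 369 FPKM in the TCPOBOP libraries, against 45.4, 63.8 and 71.5 FPKM in the corn oil libraries (2.69 ± 0.15), and its helper Cyb5a had 2544, 2564 and 2461 FPKM with TCPOBOP, against 991, 1047 and 1037 FPKM with corn oil (1.30 ± 0.07). No TCPOBOP value of either gene came near a corn oil value. Of 12 genes of heme synthesis and breakdown 5 rose and 2 fell (3 and 3 after rescaling). Alas1, the rate-limiting enzyme of heme synthesis, had 173, 129.9 and 132 FPKM with TCPOBOP, against 41.6, 27.4 and 28.2 FPKM with corn oil (2.14 ± 0.44). Cpox, a later enzyme of the same pathway, had 14.1, 15.1 and 17.3 FPKM with TCPOBOP, against 43.8, 43.5 and 38.02 FPKM with corn oil (-1.38 ± 0.08). The first step and this later step therefore changed in opposite directions, each without overlap between the groups.

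Other oxidising and hydrolysing enzymes went in both directions. Aldehyde dehydrogenases rose in 6 and fell in 4 of 15 cases, against 31.4% higher and 15.8% lower over all tested genes. Aldh1a1, a retinal dehydrogenase, had 1546, 1476 and 1627 FPKM with TCPOBOP, against 495, 597 and 569.9 FPKM with corn oil (1.49 ± 0.18), and Aldh1a7 had 439, 455 and 423 FPKM with TCPOBOP, against 76.5, 71.5 and 80.1 FPKM with corn oil (2.51 ± 0.17). Among 19 aldo-keto and carbonyl reductases 11 rose and 4 fell. Akr1b7, a reductase of lipid aldehydes, had 136, 115 and 101 FPKM with TCPOBOP, against 0.195, 0.203 and 0.5499 FPKM with corn oil (6.49 ± 0.21), and Nqo1, a quinone reductase, had 10.1, 12.8 and 9.56 FPKM with TCPOBOP, against 1.52, 2.13 and 3.05 FPKM with corn oil (1.89 ± 0.16). Akr1b7 was below 1 FPKM in every corn oil library. Carboxylesterases, which cleave ester drugs and lipids, rose in 7 and fell in 7 of 15 cases. Members of the Ces2 group rose, with Ces2a at 3161, 3132 and 2699 FPKM with TCPOBOP, against 245, 241 and 253 FPKM with corn oil (3.60 ± 0.12) and Ces2c at 129, 134 and 116 FPKM with TCPOBOP, against 46.5, 28.3 and 27.7 FPKM with corn oil (1.89 ± 0.16). Members of the Ces3 group fell, with Ces3a at 283, 259 and 412 FPKM with TCPOBOP, against 1163, 1143 and 838 FPKM with corn oil (-1.73 ± 0.18) and Ces3b at 81.4, 82.4 and 109.98 FPKM with TCPOBOP, against 339.7, 333 and 277 FPKM with corn oil (-1.79 ± 0.14). TCPOBOP replicate 3 was the highest TCPOBOP library for both Ces3 genes and was below every corn oil library. In the list of flavin monooxygenases, aldehyde and alcohol oxidising enzymes and epoxide hydrolases, 7 of 15 rose and 5 fell. Ephx1, the microsomal epoxide hydrolase, had 952, 953 and 823 FPKM with TCPOBOP, against 173, 190.2 and 183 FPKM with corn oil (2.31 ± 0.09), and Fmo5 had 429, 423 and 402 FPKM with TCPOBOP, against 102, 100.01 and 107 FPKM with corn oil (2.01 ± 0.13). The soluble epoxide hydrolase gene Ephx2 had 141, 159 and 173 FPKM with TCPOBOP, against 319, 334 and 287 FPKM with corn oil (-0.99 ± 0.10). Of the neighbouring aldehyde oxidases, Aox1 rose (1.02 ± 0.09) and Aox3 fell (-1.67 ± 0.11), with 54.1, 54.5 and 55.2 FPKM with TCPOBOP, against 203, 182 and 147 FPKM with corn oil for Aox3.

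Glutathione S-transferases, which attach glutathione to reactive compounds, took up a much larger part of the transcriptome with TCPOBOP. The 24 genes summed to 7.01%, 7.06% and 6.2% of all FPKM with TCPOBOP, against 1.68%, 1.47% and 1.45% with corn oil. Of 22 tested genes 13 rose and 2 fell, with a median of 0.71. Gstm1 had 10755, 10933 and 9628 FPKM in the TCPOBOP libraries, against 732, 798 and 929 FPKM in the corn oil libraries (3.67 ± 0.11), and Gsta1 had 1276, 1194 and 1048 FPKM with TCPOBOP, against 4.75, 5.696 and 10.1 FPKM with corn oil (7.28 ± 0.18). The corn oil libraries held Gsta1 at a low level and Gstm1 at a high one, and the TCPOBOP libraries were far above them in both. Gstk1, the mitochondrial and peroxisomal member, was 1 of the 2 that fell, with 59.8, 62.1 and 60.1 FPKM with TCPOBOP, against 85.8, 102 and 96.99 FPKM with corn oil (-0.63 ± 0.12).

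Sulfotransferases attach sulfate to steroids, bile acids and phenols. Of 14 tested genes 10 rose and 1 fell. Sult1e1, the estrogen sulfotransferase, had 79.9, 48.7 and 35.9 FPKM with TCPOBOP, against 0.217, 0.0894 and 0.109 FPKM with corn oil (5.54 ± 0.22), and Sult3a1 had 11.5, 14.6 and 21.5 FPKM with TCPOBOP, against 0, 0.0263 and 0.2298 FPKM with corn oil (3.92 ± 0.13). Both were near 0 with corn oil (Sult3a1 was listed at 0 in replicate 1), and their TCPOBOP replicates spread in opposite order, replicate 1 being the highest for Sult1e1 and replicate 3 for Sult3a1. Sult1c2 had 24.8, 20.8 and 22.2 FPKM with TCPOBOP, against 1.24, 1.75 and 2.06 FPKM with corn oil (3.15 ± 0.11). Outside that list, Sult2a8, a bile acid sulfotransferase, fell, with 59.03, 57.8 and 78.95 FPKM with TCPOBOP, against 364, 432 and 389.6 FPKM with corn oil (-2.59 ± 0.17). UDP-glucuronosyltransferases rose in 6 and fell in 4 of 17 cases, against 31.4% higher and 15.8% lower over all tested genes. Ugt1a1, which conjugates bilirubin, had 399, 405 and 357 FPKM with TCPOBOP, against 123, 168 and 183 FPKM with corn oil (1.30 ± 0.10), and Ugt1a9 had 172, 170.1 and 162 FPKM with TCPOBOP, against 27.05, 36.5 and 47.98 FPKM with corn oil (2.18 ± 0.18). The Ugt3 genes fell: Ugt3a1 had 14.6, 13.9 and 20.9 FPKM with TCPOBOP, against 49.4, 65.6 and 57.8 FPKM with corn oil (-1.76 ± 0.17), and Ugt3a2 had 61.9, 61.8 and 75.2 FPKM with TCPOBOP, against 161, 179 and 172 FPKM with corn oil (-1.36 ± 0.12). Enzymes that supply the cofactors of conjugation rose in 7 and fell in 0 of 10 cases. Ugdh, which makes UDP-glucuronic acid, had 167, 160.5 and 145 FPKM with TCPOBOP, against 52.9, 49.3 and 46.5 FPKM with corn oil (1.65 ± 0.09), and Papss2, which makes the sulfate donor, had 171, 166 and 145 FPKM with TCPOBOP, against 42.7, 61.3 and 59.8 FPKM with corn oil (1.56 ± 0.15). No TCPOBOP library overlapped a corn oil library in either gene.

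Among 16 tested efflux transporters 5 rose and 4 fell (5 and 6 after rescaling), against 31.4% higher and 15.8% lower over all tested genes. The multidrug resistance proteins Abcc2, Abcc3 and Abcc4, which export conjugates, were higher. Abcc3, on the sinusoidal side, had 208, 201 and 166 FPKM with TCPOBOP, against 43.7, 56.3 and 59.2 FPKM with corn oil (1.84 ± 0.12), and Abcc4 had 9.69, 9.03 and 8.79 FPKM with TCPOBOP, against 0.417, 0.664 and 0.59003 FPKM with corn oil (2.71 ± 0.08), while Abcc2, on the bile side, rose by 1.35 ± 0.06. The sterol exporter gene Abcg5 fell, with 15.8, 14.8 and 14.6 FPKM with TCPOBOP, against 18.97, 32.1 and 31.8 FPKM with corn oil (-0.80 ± 0.14). Uptake transporters rose in 9 and fell in 6 of 18 cases (7 and 8 after rescaling). Slco1a1 (chr6:141907281-141946962), an organic anion carrier, had 4.83, 3.63 and 9.36 FPKM with TCPOBOP, against 119, 123 and 82.002 FPKM with corn oil (-4.04 ± 0.21). Its relative Slco1a4 had 32.8, 31.4 and 25.7 FPKM with TCPOBOP, against 12.4, 15.2 and 17.02 FPKM with corn oil (0.97 ± 0.20). The pair changed in opposite directions without overlap. Slc10a2, the bile acid carrier best known from ileum, had 28.8, 27.2 and 25.7 FPKM with TCPOBOP, against 4.57, 5.59 and 4.36 FPKM with corn oil (2.28 ± 0.12), and the anion carrier Slc22a7 had 5.81, 7.21 and 8.01 FPKM with TCPOBOP, against 25.8, 22.9 and 19.9 FPKM with corn oil (-1.58 ± 0.14).

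Nearly all listed cell cycle genes rose. Of 45 tested genes of mitosis and cytokinesis 44 rose and 0 fell (median 2.24), and of 37 genes of DNA replication 35 rose and 1 fell (median 1.32). With corn oil, 41 of the 45 mitosis genes were under 1 FPKM in all 3 libraries. With TCPOBOP, 44 of the 45 were at 1 FPKM or more in all 3. The corresponding counts for the 37 replication genes were 14 under 1 FPKM with corn oil and 35 at 1 FPKM or more with TCPOBOP. All 45 mitosis and all 37 replication genes passed the filter on low values in the other 21 libraries alone, without the adult TCPOBOP libraries (1 listed replication gene did not pass with any).

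The promoters of 6 of these genes are shown because they include strong responders and, of the members that did not rise, Pttg1 and Mcm10. Each sequence is the 160 bases upstream of the RefSeq start (GRCm38.p6), written 5′ to 3′ on the gene's strand, in lower case with matches in capitals. The motifs searched were TTTGAA, the core of the cell cycle homology region read by the DREAM complex, CCAAT, the NF-Y box, and TTTGGCGC, a strict E2F site, each on both strands, so that ATTGG marks CCAAT read from the other strand, and TTCAAA likewise marks TTTGAA. No match overlapped another motif in these windows. The 6 windows, all on the minus strand, are Cdc20 (chr4:118437344-118437503), Cdk1 (chr10:69352913-69353072), Top2a (chr11:99024190-99024349), Pttg1 (chr11:43425982-43426141), Mcm6 (chr1:128359706-128359865) and Mcm10 (chr2:5012792-5012951). The Pttg1 window lies inside the gene's locus in the deposited tables (chr11:43420248-43426248), which reaches further upstream than the RefSeq start. The windows of Cdc20, Mcm6 and Mcm10 lie outside their loci, and those of Cdk1 and Top2a were not compared with theirs.
Cdc20: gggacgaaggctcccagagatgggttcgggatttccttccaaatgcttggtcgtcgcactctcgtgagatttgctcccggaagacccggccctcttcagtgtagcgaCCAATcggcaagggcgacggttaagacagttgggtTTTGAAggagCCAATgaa
Cdk1: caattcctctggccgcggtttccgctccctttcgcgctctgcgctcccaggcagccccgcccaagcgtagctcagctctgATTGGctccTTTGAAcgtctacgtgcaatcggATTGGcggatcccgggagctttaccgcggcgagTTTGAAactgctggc
Top2a: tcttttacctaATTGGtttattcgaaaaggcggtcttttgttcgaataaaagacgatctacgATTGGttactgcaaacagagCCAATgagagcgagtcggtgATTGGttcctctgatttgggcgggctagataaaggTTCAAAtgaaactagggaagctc
Pttg1: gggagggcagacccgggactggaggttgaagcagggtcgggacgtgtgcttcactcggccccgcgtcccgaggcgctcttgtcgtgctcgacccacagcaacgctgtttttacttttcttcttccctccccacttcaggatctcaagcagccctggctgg
Mcm6: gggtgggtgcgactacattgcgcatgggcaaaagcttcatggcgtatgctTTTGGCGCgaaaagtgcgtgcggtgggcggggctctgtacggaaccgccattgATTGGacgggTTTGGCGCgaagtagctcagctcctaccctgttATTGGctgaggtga
Mcm10: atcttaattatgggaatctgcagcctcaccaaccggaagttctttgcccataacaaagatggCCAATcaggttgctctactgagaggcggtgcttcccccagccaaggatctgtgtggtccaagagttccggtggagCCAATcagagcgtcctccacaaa
In the 250 bases upstream, TTTGAA was found in 12 of 39 windows of the mitosis genes (37 genes, 30.8%), against 10.9% of 11910 windows of tested genes. CCAAT was found in 29 of the 39 (74.4%), against 35.0%. TTTGGCGC was found in 0 of the 39 windows, in 3 of 35 windows of the replication genes (30 genes, 8.57%) and in 0.764% of the windows of tested genes. Of the windows of replication genes, 11.4% held TTTGAA and 48.6% CCAAT. The printed windows do not cover all genes that rose. In the same 160 bases, Ube2c, which rose, held TTTGAA and CCAAT. Ccnb1, which also rose, held CCAAT but no TTTGAA. Mcm5, which rose, held CCAAT and TTTGGCGC. These matches describe letters in the windows only, and binding was not measured.

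The gene of the cyclin that opens G1, Ccnd1 (chr7:144929931-144939925), had 27.3, 26.3 and 24.1 FPKM in the TCPOBOP libraries, against 6.58, 7.55 and 6.304 FPKM in the corn oil libraries (1.79 ± 0.15, limma adjusted p = 3.71e-09). Of 19 tested genes of G1 cyclins, their kinases and E2F factors, 13 rose and 1 fell. Foxm1, the factor that drives mitotic genes, had 4.67, 5.07 and 3.61 FPKM with TCPOBOP, against 0.0947, 0.1505 and 0.0858 FPKM with corn oil (2.29 ± 0.10), and E2f2 had 4.06, 4.65 and 3.43 FPKM with TCPOBOP, against 0.636, 0.364 and 0.231 FPKM with corn oil (1.84 ± 0.15). Myc had 13.5, 7.48 and 5.36 FPKM with TCPOBOP, against 1.07, 0.916 and 0.741 FPKM with corn oil (2.28 ± 0.29), with TCPOBOP replicate 1 above the other TCPOBOP libraries. In the replication list, Mcm5 and Mcm6, subunits of the replicative helicase, had clear rises. Mcm6 had 16.2, 15.5 and 11.9 FPKM with TCPOBOP, against 1.16, 1.38 and 1.67 FPKM with corn oil (2.68 ± 0.18), and Mcm5 changed by 2.26 ± 0.11. Rrm2, the ribonucleotide reductase subunit made for S phase, had 46.9, 40.2 and 32.1 FPKM with TCPOBOP, against 1.37, 1.55 and 1.13 FPKM with corn oil (4.10 ± 0.16), and the sliding clamp gene Pcna had 53.1, 52.2 and 43.7 FPKM with TCPOBOP, against 15.7, 16.05 and 16.97 FPKM with corn oil (1.55 ± 0.11). Mcm10, a helicase activator, fell, with 3.81, 4.01 and 3.86 FPKM with TCPOBOP, against 9.65, 8.47 and 9.35 FPKM with corn oil (-1.05 ± 0.14), and all 3 of its TCPOBOP values lay below all 3 of its corn oil values. The remaining member that did not rise was Ung, a DNA repair glycosylase, with 2.93, 2.91 and 1.92 FPKM with TCPOBOP, against 2.78, 1.84 and 2.05 FPKM with corn oil (0.15 ± 0.15, limma adjusted p = 0.446) and overlapping groups. It was past the threshold as higher with array weights (0.31) or the read file suffix as a factor (0.29).

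In the mitosis list Cdc20 (chr4:118432901-118437343), the activator of the anaphase-promoting complex, changed most, with 39.1, 48.7 and 32.7 FPKM in the TCPOBOP libraries, against 0.294, 0.121 and 0.207 FPKM in the corn oil libraries (5.08 ± 0.17, limma adjusted p = 3.3e-15). Its partner enzyme Ube2c had 19.996, 21.5 and 15.8 FPKM with TCPOBOP, against 0.378, 0.353 and 0.155 FPKM with corn oil (3.95 ± 0.15). The mitotic kinase Cdk1 had 8.79, 9.56 and 7.72 FPKM with TCPOBOP, against 0.364, 0.298 and 0.196 FPKM with corn oil (2.91 ± 0.10). Replicate 2 was the highest and replicate 3 the lowest TCPOBOP library in all 3 genes, with no TCPOBOP value near the corn oil values. The cyclin genes Ccnb1 (3.68 ± 0.15) and Ccna2 (3.07 ± 0.12), the polo-like kinase gene Plk1 (3.03 ± 0.13), the chromosomal passenger genes Birc5 (3.75 ± 0.16) and Aurkb (2.24 ± 0.09) and the topoisomerase gene Top2a (2.69 ± 0.16) all rose. The member that did not pass was Pttg1, the securin gene, with 22.03, 24.6 and 21.1 FPKM with TCPOBOP, against 26.7, 24.5 and 23.6 FPKM with corn oil (-0.14 ± 0.09, limma adjusted p = 0.213), and its groups overlapped. In rescaled values Pttg1 was past the threshold as lower.

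Because bulk liver holds several cell types, their markers were set beside the cell cycle genes. Fewer cells of a type and less RNA per cell cannot be told apart in such data. The 13 erythroid markers summed to 892 to 1484 FPKM with TCPOBOP, against 1842 to 2450 FPKM with corn oil, with 7 lower and 0 higher. Of 7 T and NK cell and 8 B and plasma cell markers 0 were called in either direction by limma. Kupffer cell and macrophage markers summed to 332 to 360 FPKM with TCPOBOP, against 363.7 to 405.6 FPKM with corn oil. Sinusoidal endothelial markers summed to 187 to 192 FPKM with TCPOBOP, against 208.5 to 240.3 FPKM with corn oil. The 11 neutrophil markers summed to 8.61 to 14.9 FPKM with TCPOBOP, against 5.99 to 8.16 FPKM with corn oil, and their part in the result was not tested. Hepatocyte markers fell in 8 of 10 cases and rose in 0, led by Alb, the albumin gene, with 2.26%, 2.36% and 2.78% of all FPKM with TCPOBOP, against 5.25%, 6.58% and 7.26% with corn oil.

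**Figure D3:**
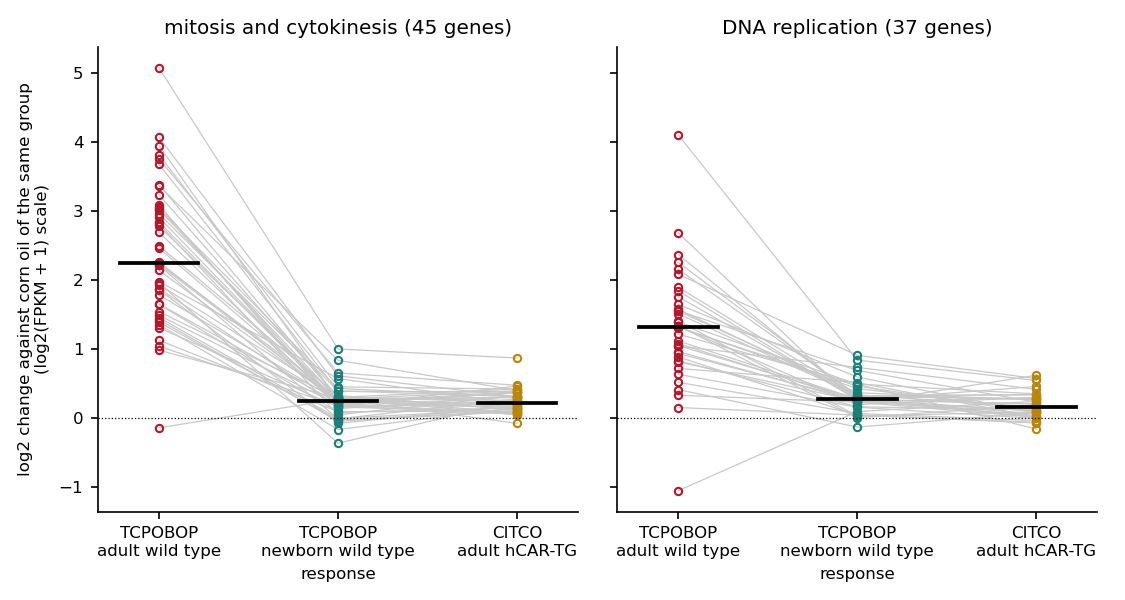
Log2 changes of 45 mitosis genes and 37 DNA replication genes with TCPOBOP in adult wild type, with TCPOBOP in newborn wild type and with CITCO in adult hCAR-TG livers (each point a gene, grey lines join a gene, black bars the medians). In adult wild type livers 44 mitosis and 35 replication genes were higher, against 13 and 20 in newborns and 4 and 4 with CITCO.

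Genes that restrain the cycle rose as well. Of 20 tested CDK inhibitors and p53 targets 13 rose and 0 fell, and of 17 genes of the DNA damage response 14 rose and 0 fell. Gadd45b, a stress sensor that also partners CAR in mice, had 28.3, 32.6 and 26.9 FPKM in the TCPOBOP libraries, against 0.312, 0.533 and 0.909 FPKM in the corn oil libraries (4.27 ± 0.24). Its relative Gadd45a had 26.7, 25.1 and 23.3 FPKM with TCPOBOP, against 2.74, 2.71 and 2.29 FPKM with corn oil (2.86 ± 0.10). Cdkn1a, which encodes the inhibitor p21, had 10.8, 11.4 and 8.86 FPKM with TCPOBOP, against 3.49, 6.11 and 1.47 FPKM with corn oil (1.40 ± 0.30), and its corn oil libraries differed widely without reaching the TCPOBOP values. Mdm2, the ubiquitin ligase of p53 and itself a p53 target, had 11.5, 10.6 and 9.59 FPKM with TCPOBOP, against 6.73, 7.28 and 7.19 FPKM with corn oil (0.51 ± 0.09). Among the damage kinases, Atr had 13.98, 10.2 and 12.6 FPKM with TCPOBOP, against 1.62, 1.27 and 1.404 FPKM with corn oil (2.44 ± 0.15), while Atm had 1.22, 1.17 and 1.06 FPKM with TCPOBOP, against 1.31, 1.22 and 1.301 FPKM with corn oil (-0.08 ± 0.07, limma adjusted p = 0.367) with overlapping groups. Immediate early genes rose in 5 and fell in 2 of 12 cases, against 31.4% higher and 15.8% lower over all tested genes. Jun had 12.6, 11.5 and 10.2 FPKM with TCPOBOP, against 3.24, 1.498 and 2.105 FPKM with corn oil (1.95 ± 0.34), and Ier2 had 7.18, 7.27 and 6.46 FPKM with TCPOBOP, against 12.1, 18.8 and 10.9 FPKM with corn oil (-0.87 ± 0.21).

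Genes outside these families were among the largest rises. Pnliprp1 (chr19:58728887-58744169), a pancreatic lipase relative, had 86.8, 65.99 and 61.8 FPKM in the TCPOBOP libraries, against 0, 0.08397 and 0.0164 FPKM in the corn oil libraries, with 1 corn oil library listed at 0. Of 19 tested pancreatic acinar markers Pnliprp1 was the sole gene that rose and 1 fell, and 9 were at 0 in all 6 libraries. D17H6S56E-5, an RNA of the histocompatibility region, had 43.1, 45.5 and 29.7 FPKM with TCPOBOP, against 0.498, 0.836 and 0.5803 FPKM with corn oil (4.61 ± 0.15). Nup205, a nuclear pore scaffold gene, had 61.8, 62.2 and 55.2 FPKM with TCPOBOP, against 2.37, 1.96 and 1.84 FPKM with corn oil (4.32 ± 0.08). Gdf15, a secreted stress signal of the TGF-beta family, had 33.7, 43.9 and 49.8 FPKM with TCPOBOP, against 4.33, 3.52 and 3.104 FPKM with corn oil (3.21 ± 0.32). Meig1, best known from meiosis, had 19.8, 16.9 and 20.3 FPKM with TCPOBOP, against 0.0485, 0.0457 and 0.261 FPKM with corn oil (4.16 ± 0.10), and Krt4, a keratin of squamous epithelium, had 24.04, 22.9 and 21.5 FPKM with TCPOBOP, against 0, 0 and 0.0122 FPKM with corn oil, with 2 corn oil libraries listed at 0. Within each of these 6 genes, every TCPOBOP library was far above every corn oil library.

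Bile acid synthesis genes fell in 10 of 15 cases and rose in 2, with a median of -0.44. Cyp7b1, the oxysterol hydroxylase of the acidic pathway, had 20.8, 14.7 and 20.1 FPKM with TCPOBOP, against 166, 100.2 and 66.3 FPKM with corn oil (-2.43 ± 0.22). The rate-limiting gene of the classic pathway, Cyp7a1, had 17.2, 9.63 and 6.899 FPKM with TCPOBOP, against 20.04, 5.33 and 9.29 FPKM with corn oil (0.05 ± 0.51, limma adjusted p = 0.955), and its groups overlapped fully. Hsd3b7, which acts in both pathways, had 139, 137 and 159.6 FPKM with TCPOBOP, against 255, 286 and 249 FPKM with corn oil (-0.86 ± 0.07). The members that rose were Cyp39a1, with 45.4, 47.6 and 30.9 FPKM with TCPOBOP, against 6.54, 11.4 and 15.6 FPKM with corn oil (1.85 ± 0.29), and Akr1d1, the reductase of the steroid ring, with 218, 200.4 and 208 FPKM with TCPOBOP, against 60.1, 63.7 and 73.7 FPKM with corn oil (1.66 ± 0.14). Klb, the co-receptor through which intestinal FGF15 restrains bile acid synthesis, fell, with 4.19, 3.95 and 3.36 FPKM with TCPOBOP, against 5.85, 7.81 and 10.1 FPKM with corn oil (-0.86 ± 0.12).

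Cholesterol synthesis genes rose in 20 and fell in 0 of 25 cases, with a median of 0.59. After rescaling 14 rose and 1 fell, and without TCPOBOP replicate 3 the counts were 18 and 0. Sqle, the squalene epoxidase, had 50.3, 43.7 and 40.9 FPKM with TCPOBOP, against 20.2, 13.5 and 25.4 FPKM with corn oil (1.19 ± 0.20). Corn oil replicate 3 was the highest corn oil library and lay below the lowest TCPOBOP library.

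Lipogenesis genes rose in 10 and fell in 6 of 22 cases, with a median of 0.21 (9 and 7 after rescaling). Fasn, fatty acid synthase, had 118, 103 and 96.5 FPKM with TCPOBOP, against 37.9, 19.9 and 33.003 FPKM with corn oil (1.81 ± 0.26), and Elovl6, which lengthens its product, had 69.6, 74.3 and 74.8 FPKM with TCPOBOP, against 13.1, 8.79 and 11.6 FPKM with corn oil (2.62 ± 0.20). Thrsp had 529, 541 and 546 FPKM with TCPOBOP, against 197, 47.3 and 102 FPKM with corn oil (2.44 ± 0.41), and Pnpla3, a lipid droplet enzyme, had 4.34, 5.02 and 4.24 FPKM with TCPOBOP, against 0.183, 0.136 and 0.129 FPKM with corn oil (2.27 ± 0.12). Corn oil replicate 2 was the lowest corn oil library in Fasn, Elovl6 and Thrsp. The members that fell included Agpat2, an acyltransferase of triglyceride synthesis, with 63.7, 69.4 and 74.3 FPKM with TCPOBOP, against 117, 92.5 and 89.1 FPKM with corn oil (-0.51 ± 0.11). Genes of lipid droplets and lipid handling rose in 9 and fell in 9 of 21 cases (6 and 9 after rescaling). Apoa4, a lipoprotein gene of fat loading, had 519, 443 and 471 FPKM with TCPOBOP, against 40.01, 44.3 and 49.4 FPKM with corn oil (3.39 ± 0.25), and the triglyceride transfer gene Mttp had 173, 175 and 166 FPKM with TCPOBOP, against 82.1, 74.98 and 75.5 FPKM with corn oil (1.13 ± 0.06). Among those that fell, G0s2, an inhibitor of the main triglyceride lipase, had 10.8, 22.3 and 19.2 FPKM with TCPOBOP, against 53.5, 42.9 and 39.4 FPKM with corn oil (-1.38 ± 0.30), and the droplet coat gene Plin5 had 7.06, 8.802 and 7.99 FPKM with TCPOBOP, against 18.3, 20.5 and 15.9 FPKM with corn oil (-1.10 ± 0.12). Of 34 tested genes of fatty acid oxidation, ketogenesis and PPARa 20 fell and 4 rose (24 and 2 after rescaling), with a median of -0.28. Ppara itself had 13.8, 12.8 and 12.02 FPKM with TCPOBOP, against 35.1, 45.96 and 49.6 FPKM with corn oil (-1.67 ± 0.13). Cpt1a, the gate of mitochondrial fatty acid entry, had 43.3, 42.8 and 44.6 FPKM with TCPOBOP, against 60.7, 81.5 and 77.6 FPKM with corn oil (-0.73 ± 0.11). Acot1, a thioesterase, had 1.53, 2.85 and 2.24 FPKM with TCPOBOP, against 9.46, 18.98 and 13.4 FPKM with corn oil (-2.19 ± 0.21). The TCPOBOP values of Ppara, Cpt1a and Acot1 all lay below their corn oil values.

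Among genes of sugar metabolism, those of gluconeogenesis fell in 10 of 15 cases and rose in 3, and those of glycolysis, glycogen and the pentose phosphate pathway rose in 16 and fell in 3 of 27 cases. Pck1, the rate-limiting cytosolic enzyme of gluconeogenesis, had 217, 169.9 and 198 FPKM with TCPOBOP, against 447, 608 and 575 FPKM with corn oil (-1.47 ± 0.18), and Tat, which feeds it from tyrosine, had 164, 184 and 192 FPKM with TCPOBOP, against 490.1, 362 and 367 FPKM with corn oil (-1.16 ± 0.17). The mitochondrial isoform gene Pck2 had 3.697, 3.597 and 3.16 FPKM with TCPOBOP, against 0.934, 0.925 and 0.995 FPKM with corn oil (1.20 ± 0.09), the opposite direction. Pklr, liver pyruvate kinase, had 164, 177 and 189 FPKM with TCPOBOP, against 68.1, 34.2 and 44.8 FPKM with corn oil (1.88 ± 0.22), and Pgd, which yields NADPH in the pentose phosphate pathway, had 53.5, 56.6 and 51.01 FPKM with TCPOBOP, against 12.9, 10.1 and 10.6 FPKM with corn oil (2.17 ± 0.10). Gbe1, the glycogen branching enzyme, rose (1.46 ± 0.09), and Ppp1r3c, which targets a phosphatase to glycogen, fell, with 2.89, 4.46 and 5.46 FPKM with TCPOBOP, against 39.4, 27.5 and 25.4 FPKM with corn oil (-2.60 ± 0.23). Every one of these 7 genes had separate groups.

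**Figure D4:**
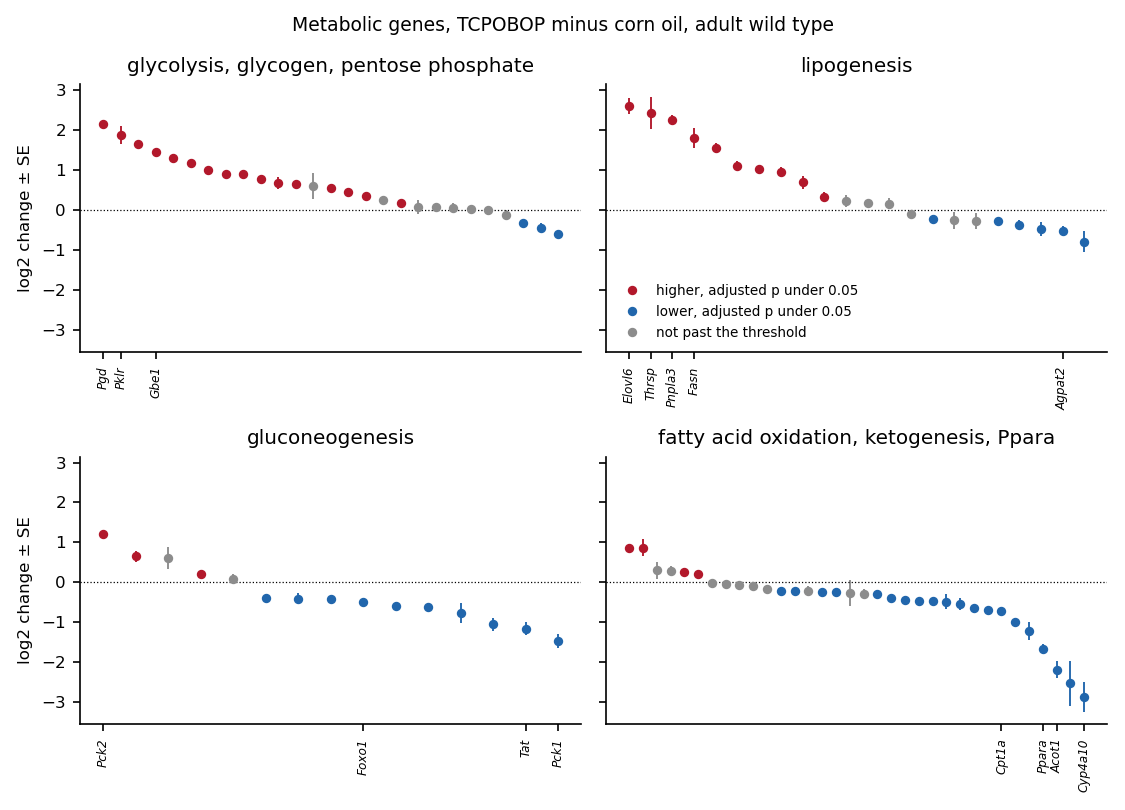
Log2 change (TCPOBOP minus corn oil) with its SE for the tested genes of glycolysis, glycogen and the pentose phosphate pathway, of lipogenesis, of gluconeogenesis and of fatty acid oxidation, each list in a panel, with the genes that the text names labelled (red higher, blue lower, grey not past the threshold). Pgd (2.17) and Elovl6 (2.62) mark the tops of the first panels, and Pck1 (-1.47) and Cyp4a10 (-2.87) the bottoms of the others.

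Amino acid breakdown and the urea cycle were lower in 16 of 29 cases and higher in 2. Ass1, a urea cycle enzyme, had 57.7, 71.1 and 84.6 FPKM with TCPOBOP, against 174, 143 and 197 FPKM with corn oil (-1.26 ± 0.21), and Cdo1, which starts the route of cysteine to taurine, had 333, 317 and 359 FPKM with TCPOBOP, against 652, 774 and 718 FPKM with corn oil (-1.08 ± 0.12). Csad, the next enzyme on that route, rose, with 103, 88.3 and 91.4 FPKM with TCPOBOP, against 68.6, 44.2 and 34.7 FPKM with corn oil (0.98 ± 0.21). In the methionine cycle 8 of 22 rose and 11 fell (4 and 11 after rescaling). Bhmt, which remakes methionine from betaine, had 136, 166 and 218 FPKM with TCPOBOP, against 1066, 818 and 942 FPKM with corn oil (-2.45 ± 0.16), and Mat2a, the methionine adenosyltransferase of dividing and fetal liver cells, had 66.5, 73.2 and 53.9 FPKM with TCPOBOP, against 19.4, 26.6 and 25.6 FPKM with corn oil (1.40 ± 0.11). In both genes the nearest libraries of the groups were far apart.

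The sexes differ in mouse liver through the pattern of growth hormone release, and genes typical of male liver were lower with TCPOBOP. Of 24 male-biased genes 17 fell and 1 rose, with a median of -1.08. Hsd3b5 (chr3:98618636-98645534), a steroid dehydrogenase, had 0.23998, 0.259 and 1.78 FPKM in the TCPOBOP libraries, against 163, 111 and 75.1 FPKM in the corn oil libraries (-6.10 ± 0.32, limma adjusted p = 1.16e-11), the largest fall of all named genes. Nudt7, a peroxisomal hydrolase, had 69.4, 84.6 and 112 FPKM with TCPOBOP, against 673, 456 and 439 FPKM with corn oil (-2.54 ± 0.17). Major urinary protein genes fell in 10 of 19 cases and rose in 0. Their sum was 3.64%, 2.85% and 4.07% of all FPKM with TCPOBOP, against 8.22%, 5.61% and 4.46% with corn oil, so that corn oil replicate 3 lay close to the highest TCPOBOP library. Female-biased genes rose in 12 and fell in 6 of 21 cases. Besides Sult3a1, Cyp2b13, Cyp3a41a and Cyp3a16 above, Hao2, a hydroxyacid oxidase, rose. It had 5.36, 5.22 and 6.08 FPKM with TCPOBOP, against 0.0141, 0.0779 and 0.0893 FPKM with corn oil (2.63 ± 0.08). The members of this list that fell included Cyp2c69 (-2.34 ± 0.13) and Cyp2c40 (-2.27 ± 0.10), described above. The list of growth hormone and IGF1 signalling had 9 of 20 genes lower and 2 higher. The receptor gene Ghr had 79.8, 80.6 and 88.2 FPKM with TCPOBOP, against 232, 216 and 181 FPKM with corn oil (-1.32 ± 0.16), Igf1 had 36.98, 42.6 and 49.2 FPKM with TCPOBOP, against 115, 107 and 107 FPKM with corn oil (-1.34 ± 0.23), and Igfals, which stabilises IGF1 in blood, had 9.195, 10.5 and 13.6 FPKM with TCPOBOP, against 38.5, 37.8 and 31.2 FPKM with corn oil (-1.61 ± 0.16). Stat5a rose, with 7.71, 8.68 and 7.48 FPKM with TCPOBOP, against 5.17, 5.22 and 4.63 FPKM with corn oil (0.58 ± 0.07). None of these 4 genes had overlapping groups.

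Hepatocytes around the central vein are kept by Wnt signals and differ from those around the portal vein. Of 21 pericentral genes 16 fell and 4 rose (median -0.71), and of 20 periportal genes 11 fell and 6 rose (median -0.57). Glul, glutamine synthetase, the defining gene of the innermost pericentral layer, had 159, 156 and 147 FPKM with TCPOBOP, against 268, 298 and 286 FPKM with corn oil (-0.88 ± 0.08). The Wnt target Axin2 had 1.16, 1.19 and 0.835 FPKM with TCPOBOP, against 2.27, 2.22 and 2.65 FPKM with corn oil (-0.71 ± 0.14), and Notum, a Wnt antagonist, had 2.67, 2.83 and 2.37 FPKM with TCPOBOP, against 12.5, 13.5 and 12.9 FPKM with corn oil (-1.95 ± 0.09). Oat, ornithine aminotransferase, had 51.1, 45.9 and 48.3 FPKM with TCPOBOP, against 211, 319.7 and 259 FPKM with corn oil (-2.40 ± 0.16). All 4 were lower in every TCPOBOP library. The pericentral genes Lect2, with 251, 243 and 238 FPKM with TCPOBOP, against 89.8, 102 and 91.5 FPKM with corn oil (1.36 ± 0.10), and Cyp1a2 rose. Among periportal genes, Pigr, the immunoglobulin transporter, had 109.5, 126 and 124 FPKM with TCPOBOP, against 274, 369.7 and 409 FPKM with corn oil (-1.52 ± 0.14), and Hsd17b6 had 29.3, 39.3 and 35.8 FPKM with TCPOBOP, against 61.9, 108 and 138 FPKM with corn oil (-1.47 ± 0.25). Spp1, periportal and also a cholangiocyte marker, had 53.1, 32.3 and 38.4 FPKM with TCPOBOP, against 20.6, 16.1 and 19.7 FPKM with corn oil (1.07 ± 0.17). The cholangiocyte markers together summed to 40.8 to 61.5 FPKM with TCPOBOP, against 25.1 to 30.6 FPKM with corn oil, with 2 of 7 tested members higher and 2 lower, and their part in the Spp1 result was not tested.

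Of 31 liver-enriched transcription factors 11 fell and 1 rose (17 and 1 after rescaling). Hnf4a, a master regulator of hepatocyte genes, had 107, 107 and 106 FPKM with TCPOBOP, against 128, 146 and 128 FPKM with corn oil (-0.33 ± 0.07), and Cebpa had 47.98, 54.4 and 53.9 FPKM with TCPOBOP, against 84.1, 88.3 and 99.2 FPKM with corn oil (-0.78 ± 0.12). The member that rose was Pparg, with 4.32, 4.02 and 4.795 FPKM with TCPOBOP, against 2.63, 2.69 and 2.75 FPKM with corn oil (0.54 ± 0.09).

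Many secreted proteins of the hepatocyte were lower. Complement and coagulation genes fell in 22 of 36 cases and rose in 7. C9, the pore-forming complement component, had 51.04, 57.02 and 76.8 FPKM with TCPOBOP, against 399.8, 337 and 257 FPKM with corn oil (-2.41 ± 0.31), and the coagulation factor gene F11 had 10.7, 9.06 and 13.4 FPKM with TCPOBOP, against 38.5, 39.6 and 32.6 FPKM with corn oil (-1.67 ± 0.12). Serpind1, heparin cofactor, was among those that rose, with 440.1, 431 and 415 FPKM with TCPOBOP, against 224, 256 and 242 FPKM with corn oil (0.83 ± 0.06). Acute phase genes fell in 11 of 26 cases and rose in 7. Itih3 had 87.98, 100.01 and 101 FPKM with TCPOBOP, against 270.1, 293 and 315 FPKM with corn oil (-1.60 ± 0.07), while Orm3, an orosomucoid, had 91.2, 100.4 and 85.5 FPKM with TCPOBOP, against 5.97, 8.46 and 18.1 FPKM with corn oil (3.11 ± 0.25) and Lcn2, a siderophore-binding protein that neutrophils also carry, had 41.7, 50.7 and 39.9 FPKM with TCPOBOP, against 6.65, 10.7 and 20.02 FPKM with corn oil (1.86 ± 0.37). Corn oil replicate 3 was the highest corn oil library for Orm3 and Lcn2. Rnase4 and Ang, ribonuclease genes that share a locus and whose reads may not be separable, fell together. Rnase4 had 60.5, 51.99 and 66.3 FPKM with TCPOBOP, against 415, 573 and 650.3 FPKM with corn oil (-3.16 ± 0.15), and Ang had 21.7, 22.4 and 22.1 FPKM with TCPOBOP, against 152, 196 and 226 FPKM with corn oil (-3.04 ± 0.12). Serpina4-ps1, a serpin pseudogene, had 1.13, 1.07 and 1.65 FPKM with TCPOBOP, against 82.3, 32.96 and 25.7 FPKM with corn oil (-4.22 ± 0.49), with corn oil replicate 1 far above the other corn oil libraries.

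Iron genes held some of the largest changes. Hamp2, a hepcidin gene, had 9.28, 9.72 and 17.6 FPKM with TCPOBOP, against 94.4, 157 and 201 FPKM with corn oil (-3.51 ± 0.39). Tfrc, the transferrin receptor that dividing cells use for iron, had 28.8, 32.9 and 32.97 FPKM with TCPOBOP, against 7.27, 8.04 and 6.19 FPKM with corn oil (2.0 ± 0.23), and the plasma carrier gene Trf had 2807, 2949 and 3120.4 FPKM with TCPOBOP, against 5034, 6069.6 and 5805 FPKM with corn oil (-0.93 ± 0.09). Of 18 genes of hepcidin and iron handling 6 rose and 7 fell, against 31.4% higher and 15.8% lower over all tested genes.

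NRF2 and antioxidant genes rose in 18 and fell in 1 of 23 cases. Srxn1, sulfiredoxin, had 64.4, 61.5 and 50.01 FPKM with TCPOBOP, against 10.9, 11.5 and 10.4 FPKM with corn oil (2.31 ± 0.09), and the member that fell was the catalase gene Cat, with 649.95, 667 and 749.8 FPKM with TCPOBOP, against 1053, 1143 and 1079.8 FPKM with corn oil (-0.67 ± 0.07). Endoplasmic reticulum stress genes fell in 12 of 22 cases and rose in 2. Creld2 had 29.01, 26.9 and 27.4 FPKM with TCPOBOP, against 128, 66.8 and 73.3 FPKM with corn oil (-1.59 ± 0.18), Sdf2l1 had 20.6, 18.1 and 19.3 FPKM with TCPOBOP, against 73.4, 38.6 and 42.8 FPKM with corn oil (-1.32 ± 0.18), and the main chaperone gene Hspa5 had 366, 354 and 366 FPKM with TCPOBOP, against 747, 439.7 and 392 FPKM with corn oil (-0.48 ± 0.17). Corn oil replicate 1 was the highest library in all 3 genes, and the other corn oil libraries also lay above TCPOBOP. The Hspa5 fall was no longer past the threshold without corn oil replicate 1 (-0.20), without any single TCPOBOP library or in the 6 libraries alone. In the integrated stress response list 7 of 17 rose and 2 fell, against 31.4% higher and 15.8% lower over all tested genes. Trib3 had 14.4, 13.3 and 12.1 FPKM with TCPOBOP, against 2.204, 4.52 and 7.74 FPKM with corn oil (1.41 ± 0.27). Chac1, a glutathione-degrading enzyme gene, had 0.307, 0.184 and 0.239 FPKM with TCPOBOP, against 0.941, 1.74 and 1.02 FPKM with corn oil (-0.83 ± 0.17).

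Most listed genes of protein synthesis and turnover rose, by small amounts at the median. Cytosolic ribosomal protein genes rose in 73 and fell in 0 of 78 cases, with a median of 0.53 (0.43 after rescaling, with 69 higher and 0 lower). They summed to 3.57%, 3.65% and 3.37% of all FPKM with TCPOBOP, against 2.63%, 2.45% and 2.48% with corn oil. Rpl12 had 287, 302 and 266 FPKM with TCPOBOP, against 185, 152 and 145 FPKM with corn oil (0.83 ± 0.09). Proteasome genes rose in 31 and fell in 1 of 37 cases, with Psmb5 at 124, 129 and 114 FPKM with TCPOBOP, against 68.6, 71.6 and 68.7 FPKM with corn oil (0.80 ± 0.07). Respiratory chain genes rose in 14 and fell in 12 of 87 cases (6 and 26 after rescaling), with a median of -0.07. Over all tested genes 31.4% were higher and 15.8% lower.

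**Figure D5:**
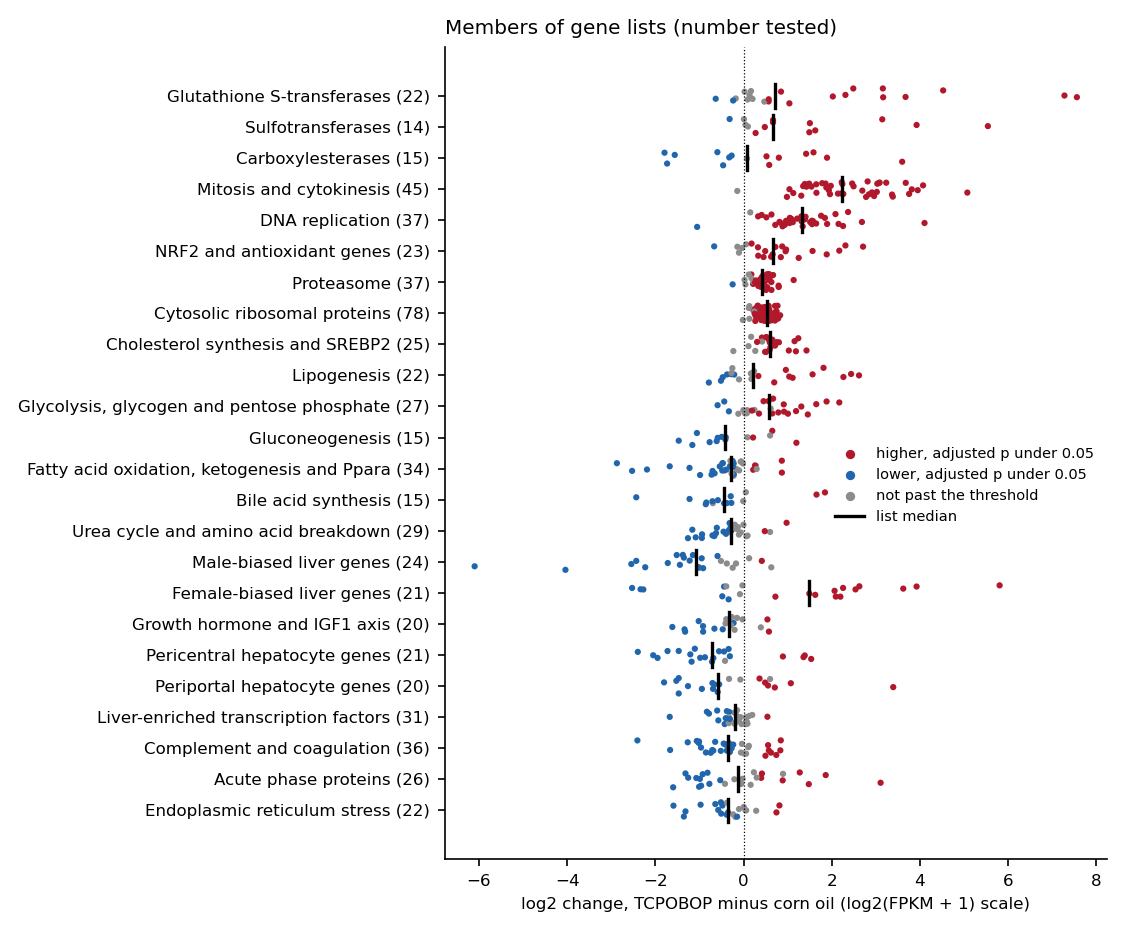
Log2 changes (TCPOBOP minus corn oil) of the tested members of 24 gene lists, with each point a gene and each black line the median of its list. The medians run from -1.08 in male-biased genes to 2.24 in mitosis genes, and the mitosis points lie almost wholly to the right of 0.

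The adult response was next set against that of newborn wild type livers, which used other corn oil libraries. The difference between the responses passed the threshold in 2879 genes (23.4%), 1680 with the adult change higher (13.7%) and 1199 with it lower (9.76%). Of the 5801 adult calls 48.1% were also called in the same direction in newborns, and of the 4408 newborn calls 63.2% were called in the same direction in adults. In the mitosis list the adult response was larger than that of newborns in 44 of 45 genes and smaller in 1. For Cdc20 the change was 5.08 ± 0.17 in adults and 1.002 ± 0.17 in newborns (difference 4.07 ± 0.24, limma adjusted p = 1.68e-10). Ccnd1 changed by 1.79 ± 0.15 in adults and -0.43 ± 0.15 in newborns, where it fell (difference 2.22 ± 0.21, limma adjusted p = 1.34e-07). Rrm2 changed by 4.10 ± 0.16 in adults and 0.84 ± 0.16 in newborns (difference 3.26 ± 0.22). By the test of the difference, all 3 had the larger log2 change in adults. Newborn corn oil levels are not given here, and the part of the starting level in these differences was not tested. With adult corn oil, 41 of the 45 mitosis genes were under 1 FPKM in all 3 libraries.

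Drug metabolism genes differed between the ages in both directions. In the Cyp2c family the adult change was lower than that of newborns in 12 of 13 genes and higher in 0. Cyp2c29 changed by 2.81 ± 0.39 in adults and 7.92 ± 0.39 in newborns (difference -5.11 ± 0.55, limma adjusted p = 1.68e-06). Cyp2c67 fell in adults (-2.54 ± 0.12) and rose in newborns (0.31 ± 0.12, difference -2.85 ± 0.17). Aldh1a7 changed by 2.51 ± 0.17 in adults and 5.61 ± 0.17 in newborns (difference -3.10 ± 0.24). For Cyp2b10 the changes were 7.59 ± 0.26 in adults and 8.35 ± 0.26 in newborns, and the difference of -0.77 ± 0.36 did not pass (limma adjusted p = 0.144). Sult1e1 changed by 5.54 ± 0.22 in adults and 0.96 ± 0.22 in newborns (difference 4.58 ± 0.31). Sult3a1 changed by 3.92 ± 0.13 in adults and 0.05 ± 0.13 in newborns (difference 3.88 ± 0.18). Both had the larger log2 change in adults. The adult change was also the lower in 20 of 29 urea cycle and amino acid genes and in 14 of 22 endoplasmic reticulum stress genes, a list in which 9 genes rose in newborns. Ribosomal protein genes rose in 71 of 78 cases in newborns and 73 of 78 in adults, and 10 of the 78 differences passed.

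Adult livers given CITCO on the hCAR-TG background differed in receptor and ligand together, so the source of a difference cannot be told apart. The CITCO response passed the threshold in 1028 genes (8.37%), and the adult TCPOBOP response differed from it in 4154 (33.8%), 2954 higher (24.1%) and 1200 lower (9.77%). After rescaling 56.8% of the differences were higher, against 71.1% as deposited. Of the 1028 CITCO calls 59.5% had the same direction with TCPOBOP, and these were 10.5% of the TCPOBOP calls. Of the 8 Cyp3a genes 7 rose with CITCO, and the difference passed in 2, both with the larger rise under TCPOBOP. Cyp3a11 changed by 2.01 ± 0.11 with TCPOBOP, and its change with CITCO differed from this by 0.01 ± 0.16, TCPOBOP minus CITCO (limma adjusted p = 0.973). Por changed by 2.69 ± 0.15 with TCPOBOP and 2.12 ± 0.15 with CITCO (difference 0.57 ± 0.21). Cyp2b10, in contrast, changed by 7.59 ± 0.26 with TCPOBOP and 2.44 ± 0.26 with CITCO (difference 5.15 ± 0.36, limma adjusted p = 2.73e-09). Nup205 changed by 4.32 ± 0.08 with TCPOBOP and 0.07 ± 0.08 with CITCO (difference 4.24 ± 0.11). The 95% interval of the Cyp3a11 difference ran from -0.32 to 0.34 and that of Por from 0.13 to 1.02.

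The cell cycle lists also differed between the adult TCPOBOP and CITCO responses. The TCPOBOP response was larger in 44 of 45 mitosis genes and in 34 of 37 replication genes, and smaller in 1 replication gene. Cdk1 changed by 2.91 ± 0.10 with TCPOBOP and 0.37 ± 0.10 with CITCO (difference 2.55 ± 0.13, limma adjusted p = 2.13e-11). Cdkn1a rose with TCPOBOP (1.40 ± 0.30) and fell with CITCO (-1.29 ± 0.30, difference 2.69 ± 0.42). Ribosomal protein genes were higher in 4 and lower in 1 of 78 cases with CITCO, and 60 of 78 differences were higher with TCPOBOP. Lipogenesis genes fell in 10 of 22 cases with CITCO and rose in 0. Fasn rose with TCPOBOP (1.81 ± 0.26) and fell with CITCO (-1.40 ± 0.26, difference 3.21 ± 0.37, limma adjusted p = 1.38e-06). Endoplasmic reticulum stress genes fell in 12 of 22 cases in either response, with Creld2 at -1.59 ± 0.18 with TCPOBOP and -1.63 ± 0.18 with CITCO (difference 0.04 ± 0.25, limma adjusted p = 0.941). Nr1i3 changed by -1.59 ± 0.18 with TCPOBOP and 0.18 ± 0.18 with CITCO (difference -1.77 ± 0.26). How reads of the human receptor in hCAR-TG livers were counted is not stated.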

How the data were processed

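Liver polyadenylated RNA was made into stranded mRNA libraries from flash-frozen tissue per the labels' protocols. The authors deposited 1 table per library with FPKM per gene (24885 entries), on mm10 per the submitters' processing notes. The aligner, quantifier and annotation are not given in the sources used here. FPKM scale each gene by its length and each library by its total, so a large rise of some genes can lower the values of others. Here the median-of-ratios size factors were 0.9964 to 1.0325 in the adult wild type TCPOBOP libraries. In the adult wild type corn oil libraries they were 0.9451 to 0.9681, so typical genes were higher with TCPOBOP as deposited.

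FPKM of the 279 symbols listed at several loci were summed, 27 entries whose symbols had become dates were kept apart, and 5 genes with a failed estimate were left out. Genes with at least 1 FPKM in 3 of the 24 libraries were tested on log2(FPKM + 1) with limma 3.58.1 in R 4.3.3 (moderated test with trend and robust prior, two-sided). All 24 libraries entered a model of 8 groups with 16 residual degrees of freedom, and p-values were Benjamini-Hochberg adjusted over 12282 genes. The procedure was tested on simulated data. No read counts entered the work and absolute depth is unknown; relative depth came from the widths of the deposited FPKM intervals.

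The text draws its genes from Nr1i3, Nr1i2, Cyp2b10, the 10 largest rises and falls with separate groups, up to 4 genes called each way and 2 uncalled genes in each list, and the 8 largest differences each way between responses. Named beside these, after their values were seen and as familiar members of the lists, are Aurkb, Axin2, Birc5, Ccna2, Ccnb1, Cdk1, Cpt1a, Cyp2a5, Cyp7a1, Glul, Hnf4a, Hspa5, Mdm2, Pcna, Plk1, Top2a and the remaining Cyp2c genes. Some members of the lists are counted but not reported here by name. The members and lists were chosen with earlier results of these data known. No library was a copy of another, the closest pair differing by 0.0798 on average (log2). Same-numbered TCPOBOP and corn oil libraries did not deviate together (correlations -0.046, -0.014 and -0.14), so replicate numbers were not taken as pairs. Alternatives were median-of-ratios rescaling, a pseudocount of 0.1, other filters, a 2-fold requirement, a replicate block, array weights, a plain prior, the read file suffix as a factor, the compared libraries alone and each library left out.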

Additional observations from a re-analysis of the deposited data

Results flagged for a closer look

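Responses that differed between groups by a direct test of the difference are listed here as values. The adult and newborn TCPOBOP responses differed in 2879 genes, and the adult TCPOBOP and adult CITCO responses in 4154. Of all tested genes, 194 were called in opposite directions in adults and newborns, and 124 with TCPOBOP and CITCO.

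Among the genes described above, 10 fell in adults and rose in newborns. The hepcidin gene Hamp2 changed by -3.51 ± 0.39 in adults and 1.78 ± 0.39 in newborns, a difference of -5.29. Cyp7b1 changed by -2.43 ± 0.22 in adults and 1.16 ± 0.22 in newborns (difference -3.59). The Cyp2c genes Cyp2c67 (-2.85), Cyp2c69 (-2.75) and Cyp2c40 (-2.65), the aldehyde oxidase gene Aox3 (-2.51) and Cyp2e1 (-2.29) also differed in this direction. Further such genes were Cyp2c38 (-1.93), whose adult fall was not past the threshold in the 6 libraries alone, Sdf2l1 (-2.06), an endoplasmic reticulum chaperone cofactor, and Pigr (-2.03), the immunoglobulin transporter.

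The opposite pattern, a rise in adults and a fall in newborns, was seen in Ccnd1 (difference 2.22) and in Fst (2.66), which encodes the activin antagonist follistatin. Fst had 7.56, 7.57 and 6.65 FPKM in the TCPOBOP libraries, against 1.23, 0.581 and 0.761 FPKM in the corn oil libraries, and the adult groups did not overlap.

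Against CITCO, Fasn (3.21), the lipid droplet gene Pnpla3 (2.71), Cdkn1a (2.69) and Stat5a (0.85) rose with TCPOBOP and fell with CITCO. Abcg5 (-1.26), the sterol exporter, Chac1 (-1.6), which degrades glutathione, and Socs2 (-2.05), an inhibitor of growth hormone signalling, fell with TCPOBOP and rose with CITCO, as did Hnf4a (-0.63). Socs2 had 1.397, 0.802 and 0.643 FPKM in the TCPOBOP libraries, against 2.82, 2.31 and 3.66 FPKM in the corn oil libraries. Receptor and ligand differ together in this comparison, so their parts cannot be told apart.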

How the results depend on the processing

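The count of 5801 genes stayed within 1.5 times under most alternatives, at 5926 after rescaling (5089 of the genes in common with the main calls), 5948 with a pseudocount of 0.1, 6090 with no filter, 4360 with a filter at 5 FPKM, 6029 with the read file suffix as a factor, 6114 in the 6 libraries alone and 7309 with array weights. Leaving out a library gave 5074 to 5639 genes, 3395 to 3794 higher and 1673 to 1845 lower. TCPOBOP replicate 3 has another read file suffix than the other 5 libraries, and what the suffix stands for is not stated. The requirement of a 2-fold change left 834 genes, 638 higher and 196 lower. With the replicate block, which pairs libraries by number only, 5763 genes were called, 2822 for the difference from newborns and 4078 for the difference from CITCO.

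The difference from newborns (2879 genes) was 5037 with array weights, 2796 higher and 2241 lower, and 534 at 2-fold, 342 higher and 192 lower. Leaving out a library gave 2385 to 2828 genes (1381 to 1708 higher, 941 to 1300 lower), and the suffix factor could not be fitted. The difference from CITCO (4154 genes) had 1873 genes lower with array weights, and 736 genes at 2-fold, 571 higher and 165 lower. Leaving out a library gave 3597 to 4361 genes (2568 to 3061 higher, 946 to 1300 lower). The cause of these shifts was not tested, apart from the 2-fold requirement, which removes genes by construction. Of the 184 genes named, 154 kept their result under a 2-fold requirement and 30 lost the call. Otherwise, Cyp2b9, Cyp2c38 and Hspa5 lost their calls in the 6 libraries alone, Hspa5 also without corn oil replicate 1 or any single TCPOBOP library, Pttg1 gained one after rescaling, and Ung gained one with array weights or the suffix factor. The uncalled Cyp7a1 change was -0.035 after rescaling and ran from -0.353 to 0.513 with a library left out. All other named genes tested kept their direction and side of the threshold under the remaining alternatives.

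With 3 libraries a group, unknown depth and no stated source animals, small changes of genes near 1 FPKM are the least certain, and values of near-identical gene copies depend on how their reads were shared out.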

Other observations

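Genes of fetal liver and of liver tumours rose in 8 and fell in 0 of 17 tested cases with TCPOBOP (6 and 0 after rescaling). Over all tested genes 31.4% were higher and 15.8% lower. The other 9 listed genes were not called, and the list median was 0.23. The 4 genes below are among those that rose. Prom1, which encodes the progenitor surface protein CD133, had 22.5, 19.6 and 17.5 FPKM in the TCPOBOP libraries, against 0.211, 0.326 and 0.4396 FPKM in the corn oil libraries, a change of 3.97 ± 0.18. The carbonyl reductase gene Cbr3 had 4.41, 4.69 and 4.69 FPKM with TCPOBOP, against 0.43002, 0.359 and 0.507 FPKM with corn oil (1.97 ± 0.10), and the imprinted gene Peg3 had 7.5004, 7.57 and 5.62 FPKM with TCPOBOP, against 2.14, 1.89 and 2.301 FPKM with corn oil (1.34 ± 0.16). Cd24a, a surface protein of progenitors and cholangiocytes, had 6.65, 5.05 and 3.22 FPKM with TCPOBOP, against 1.25, 1.05 and 0.963 FPKM with corn oil (1.48 ± 0.25). In all 4 genes every TCPOBOP library was above every corn oil library. The cholangiocyte marker sum was also higher with TCPOBOP (40.8 to 61.5 FPKM, against 25.1 to 30.6 FPKM with corn oil), and its part in these rises was not tested. The change in Prom1 was 3.97 ± 0.18 with TCPOBOP and 3.23 ± 0.18 with CITCO in hCAR-TG livers (difference 0.75 ± 0.25, limma adjusted p = 0.0277), while Cbr3 changed by 1.97 ± 0.10 with TCPOBOP and 0.17 ± 0.10 with CITCO (difference 1.79 ± 0.14, limma adjusted p = 2.84e-09).

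Genes of thyroid hormone handling rose in 6 and fell in 8 of 15 cases. Klf9, a transcription factor that thyroid hormone and glucocorticoids induce, had 10.7, 9.09 and 9.41 FPKM in the TCPOBOP libraries, against 22.2, 35.7 and 31.1 FPKM in the corn oil libraries (-1.49 ± 0.15). Ttr, the plasma carrier of thyroxine, had 1719.6, 1992 and 2146 FPKM with TCPOBOP, against 3281, 3470.0 and 3234 FPKM with corn oil (-0.77 ± 0.09). Both genes had separate groups and lower values in every TCPOBOP library.

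Circadian clock genes rose in 4 and fell in 5 of 16 cases (4 and 7 after rescaling), against 31.4% higher and 15.8% lower over all tested genes. Bhlhe40, a repressor in the clock, had 51.8, 48.5 and 40.5 FPKM in the TCPOBOP libraries, against 11.4, 17.3 and 23.7 FPKM in the corn oil libraries (1.43 ± 0.21). The output regulator genes Nfil3 and Hlf fell. Nfil3 had 7.34, 8.32 and 9.34 FPKM with TCPOBOP, against 22.1, 13.3 and 11.6 FPKM with corn oil (-0.79 ± 0.17), with corn oil replicate 1 the highest, and Hlf had 4.38, 4.16 and 3.98 FPKM with TCPOBOP, against 7.35, 7.88 and 7.73 FPKM with corn oil (-0.74 ± 0.12), with narrow groups far apart. The hour of collection is not stated in the labels.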
